A study of Rattus norvegicus with 36 samples.

Results

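The nucleus accumbens (NAc) was compared with the infralimbic prefrontal cortex (IL) of the same cocaine-naïve rats by small RNA sequencing. The members are 8 libraries of 36 in the series, 1 NAc and 1 IL library from each of 4 naïve rats (M157, M378, M476 and M480), and the comparison runs across all miRNAs. The animals were male heterogeneous stock (HS) rats, an outbred stock. The naïve rats had no cocaine self-administration and were age-matched to the others as of the start of self-administration. They were compared with 4 rats at withdrawal (16-hr in the labels) and 4 rats after 4-week abstinence, both following escalated cocaine self-administration. The paper gives a somewhat longer withdrawal interval than the labels. The same 3 regions, NAc, IL and prelimbic cortex (PL), were cut from thick frozen sections of each of the 12 brains by anatomical features. Each library therefore held RNA from all cells of a tissue piece.

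Counts were given for 723 mature miRNAs. Of these, 457 passed the filter on low counts and were tested. They held 99.9978% of the counts of the 8 libraries. Of the 266 not tested, 128 had no count in the 8 libraries, and no other one exceeded 29 counts in any of them. Total counts ranged from 8510309 to 11035007 in the IL and from 9509360 to 12757547 in the NAc. More miRNAs had a count in each NAc library (529 to 550) than in any IL library (484 to 504). RNA integrity numbers (RIN) were 8.9 to 9.2 in the IL and 8.1 to 9.2 in the NAc, with the lowest in rat M476. rno-miR-128-3p, a miRNA of neurons, was the most abundant miRNA in all 36 libraries.

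A miRNA is a short RNA that guides Argonaute proteins to messenger RNAs, mostly through its seed, bases 2 to 8 from the 5′ end, and lowers the output of the transcripts it pairs with. Each is cut from a hairpin whose 5p and 3p arms carry different seeds, and usually one arm is the more abundant. The NAc is the ventral part of the striatum, made up mostly of GABAergic medium spiny neurons that receive dopamine. The IL is a cortical area whose principal cells are glutamatergic pyramidal neurons, many of which project to the NAc.

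The sequences below are of the miRNAs on which the comparison turns, as given by RefSeq (GRCr8) for rat, 5′ to 3′, with the seed in capitals. The first set shows miRNAs that were higher in the NAc. rno-miR-7a-5p and rno-miR-7b share a seed, as do rno-miR-101a-3p and rno-miR-101b-3p.
rno-miR-187-3p: uCGUGUCUuguguugcagccgg
rno-miR-872-5p: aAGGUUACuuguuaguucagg
rno-miR-21-5p: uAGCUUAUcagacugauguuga
rno-miR-101b-3p: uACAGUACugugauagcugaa
rno-miR-101a-3p: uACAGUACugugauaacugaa
rno-miR-7a-5p: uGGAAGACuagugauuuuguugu
rno-miR-7b: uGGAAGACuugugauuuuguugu
rno-miR-1298: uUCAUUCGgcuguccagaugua
rno-miR-448-3p: uUGCAUAUguaggauguccca

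The second set shows miRNAs that were lower in the NAc. The 5p arms of both miR-128 hairpins share a seed, and rno-miR-125a-5p, rno-miR-125b-5p and rno-miR-351-5p share another.
rno-miR-128-2-5p: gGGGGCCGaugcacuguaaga
rno-miR-128-1-5p: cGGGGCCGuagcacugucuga
rno-miR-671: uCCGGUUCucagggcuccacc
rno-miR-125a-5p: uCCCUGAGacccuuuaaccuguga
rno-miR-125b-5p: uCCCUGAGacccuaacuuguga
rno-miR-351-5p: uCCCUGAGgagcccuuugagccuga

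The third set is the let-7 seed family, whose members have one seed and moved in both directions.
rno-let-7a-5p: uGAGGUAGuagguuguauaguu
rno-let-7b-5p: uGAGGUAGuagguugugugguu
rno-let-7c-5p: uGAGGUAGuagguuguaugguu
rno-let-7d-5p: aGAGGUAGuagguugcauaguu
rno-let-7e-5p: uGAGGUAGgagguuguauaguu
rno-let-7f-5p: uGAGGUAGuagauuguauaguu
rno-let-7i-5p: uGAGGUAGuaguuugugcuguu
rno-miR-98-5p: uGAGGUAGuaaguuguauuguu

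Levels are given as log2 CPM (counts scaled to a common library size) after TMM scaling of the library totals, and a log2FC is the NAc level over the IL level from edgeR's quasi-likelihood fit with the rat as a block, with its approximate standard error (SE). A miRNA was called higher or lower in the NAc where the Benjamini-Hochberg adjusted p over the 457 miRNAs was under 0.05 and the fold change was at least 1.5. By this rule 134 miRNAs were higher (29.3% of those tested) and 117 were lower (25.6%), 251 in all (54.9%). The median log2FC of all 457 was 0.06. Large differences were mostly on the higher side, with 59 miRNAs at least 4-fold higher and 8 at least 4-fold lower. All 4 rats moved in the direction of the call for 234 of the 251 miRNAs, and the 4 NAc libraries did not overlap the 4 IL libraries for 125 miRNAs that were higher (27.4% of those tested) and 112 that were lower (24.5%), 237 in all (51.9%). With each library scaled by its total alone, the median log2FC rose to 0.35 and the calls became 162 higher and 73 lower. The smallest two-sided p that an exact sign-flip permutation test over 4 rats can give is about 0.13, so the adjusted p-values come from the fit. As the 8 libraries are bulk tissue, fewer cells of a type and less RNA per cell cannot be told apart.

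**Figure D1:**
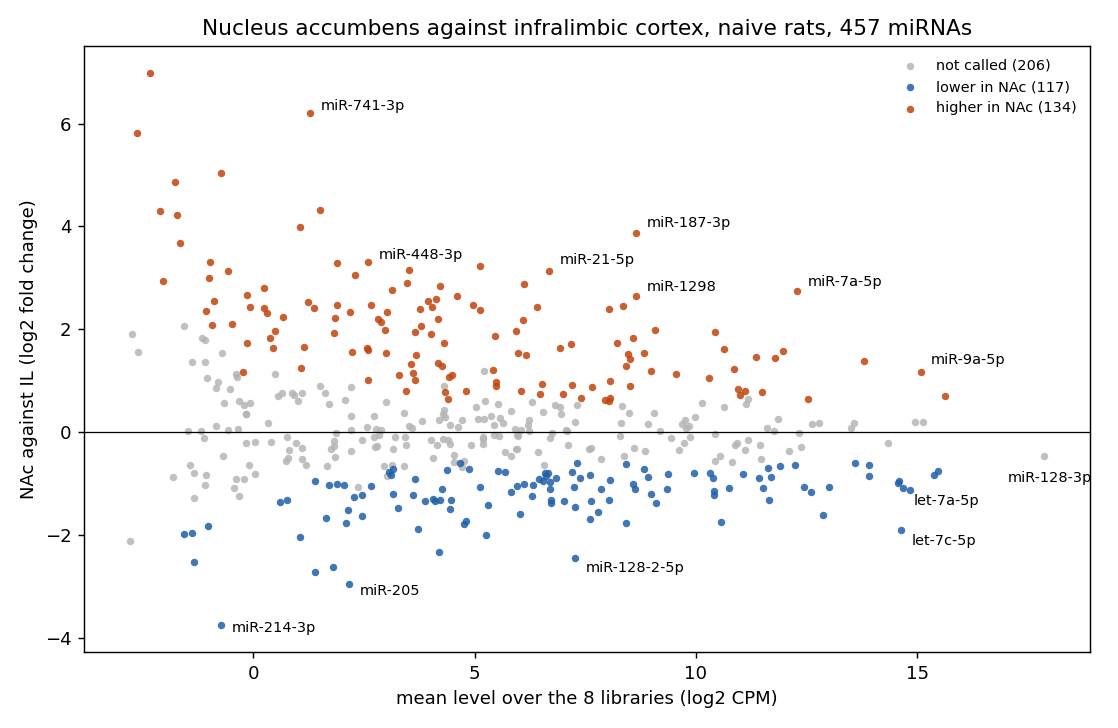
Each point is 1 of the 457 miRNAs tested, with its mean level over the 8 libraries (log2 CPM, x axis) and its NAc against IL log2 fold change (y axis). Orange points were called higher in the NAc (134), blue points lower (117), and grey points were not called (206). The changes of 4-fold or more lie mostly above the zero line, and they include miR-187-3p among the well expressed miRNAs.

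The differences followed the base composition of the mature miRNA. A RefSeq sequence was found for 411 of the 457 miRNAs. Across these, the log2FC and the G+C content had a Spearman correlation of −0.60, given as a description because the miRNAs share the same 8 libraries. It was −0.59 over the 199 with a mean level of at least 5 log2 CPM. The median log2FC was 2.09 for the 32 miRNAs with at most 35% G+C, of which 28 were called higher and 0 lower. It was −0.82 for the 68 miRNAs with over 60% G+C, of which 1 was called higher and 37 lower. Within single rats the correlation was −0.51 in M157, −0.61 in M378, −0.37 in M476 and −0.63 in M480. The share of A had the strongest positive relation (Spearman 0.39) and the share of G the strongest negative one (−0.38), and length had almost none (−0.03).

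The slope of the level on G+C content separated the libraries by region. Relative to the mean of all libraries, it was 0.043 to 0.268 log2 units per 10 percentage points of G+C in the IL of naïve rats and −0.768 to −0.320 in their NAc. In the PL of naïve rats it ran from −0.216 to 0.603 and overlapped the IL. Because base composition moved with the region, the comparison was repeated with the trend of each library on G+C content taken out, an alternative chosen after the data were seen. Over the 411 miRNAs this gave 84 higher (20.4%) and 87 lower (21.2%), 171 in all (41.6%), against 125 higher (30.4%) and 106 lower (25.8%), 231 in all (56.2%), of the same miRNAs without it. Of the 231 calls, 130 stayed with their direction (65 higher and 65 lower), 100 were lost and 1 was called in the opposite direction, while 40 miRNAs were called that had not been. The part of base composition in each difference was not tested, so the log2FC with the trend out is given beside the results it changes.

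**Figure D2:**
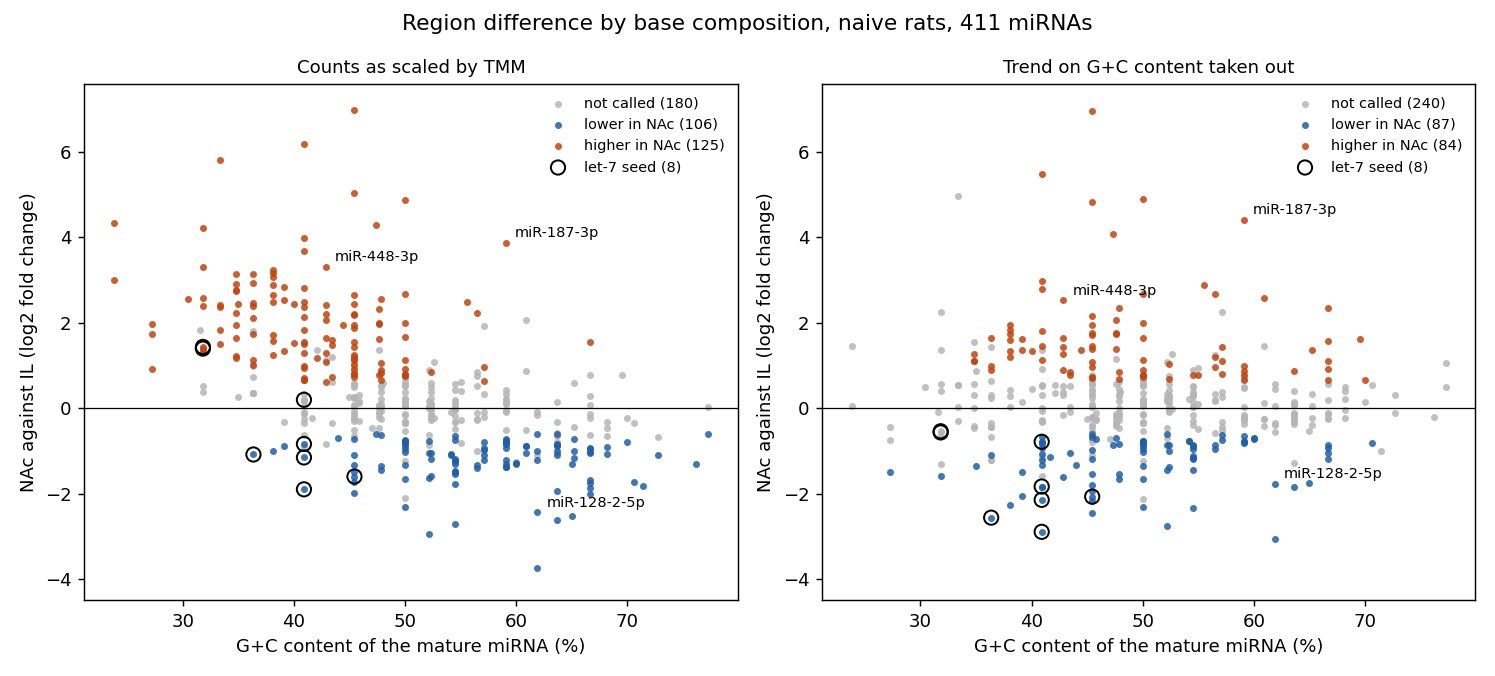
Both panels plot the NAc against IL log2 fold change (y axis) by the G+C content of the mature miRNA (%, x axis) for 411 miRNAs, on the left as scaled by TMM and on the right with the trend on G+C taken out. Colours mark calls as higher, lower or not called, and open circles mark the 8 miRNAs with the let-7 seed. On the left the points fall from left to right (Spearman −0.60), and on the right, where all 8 let-7 circles lie below zero, they do not (−0.05).

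rno-miR-187-3p had the largest difference among the well expressed miRNAs. In the NAc it was at 10.63, 10.97, 10.22 and 10.46 log2 CPM in rats M157, M378, M476 and M480. In the IL it was at 6.27, 7.0, 7.43 and 6.20. Every NAc library was above every IL library, and the difference came to 14.7-fold (log2FC = 3.88, SE 0.33, adjusted p = 1.4e-08). Its G+C content was 59.1%. Of the 46 miRNAs with over 55% and at most 60%, 5 were called higher and 20 lower. With the G+C trend out the log2FC was 4.41. The other arm of the hairpin, rno-miR-187-5p, was higher as well (log2FC = 2.48, SE 0.36).

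The miRNAs hosted in introns of Htr2c rose together in the NAc. This X-linked gene encodes the serotonin 2C receptor, a target of drugs that change feeding and cocaine seeking, and its introns hold the hairpins of miR-448, miR-764, miR-1298 and miR-1912. All 6 tested arms were called higher, beside 29.3% of all miRNAs, with a median log2FC of 2.44 against 0.06 over all miRNAs. rno-miR-1298 is the most abundant of them. It was at 9.50, 9.98, 9.96 and 10.40 log2 CPM in the NAc of the 4 rats, in the order given above, and at 7.18, 6.75, 8.13 and 7.35 in their IL. The regions did not overlap (log2FC = 2.64, SE 0.34, adjusted p = 3.71e-06). rno-miR-448-3p was at 3.79, 4.53, 3.85 and 4.64 log2 CPM in the NAc and at 0.74, 0.67, 1.34 and 1.26 in the IL (log2FC = 3.31, SE 0.36, adjusted p = 4.43e-07). The log2FC was 1.99 for rno-miR-448-5p, 2.24 for rno-miR-764-3p and 1.55 for rno-miR-764-5p. rno-miR-1912-3p had 7 to 15 counts in each NAc library and 1 count in all of the IL, in rat M157, and its fitted log2FC of 4.29 (SE 1.07) rests on that count. The 5 arms with a sequence all remained called with the G+C trend out, with a median log2FC of 2.53.

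rno-miR-7a-5p, a brain and endocrine miRNA, was the most abundant of the 12 leading miRNAs that were higher in the NAc. It was at 12.95, 13.72, 13.44 and 14.50 log2 CPM in the NAc and at 10.97, 10.43, 11.78 and 10.55 in the IL. The lowest NAc library lay above the highest IL library (log2FC = 2.74, SE 0.42, adjusted p = 1.6e-05). rno-miR-7b, which differs from it in the bases after the seed, rose by less (log2FC = 1.95, SE 0.29). Of the 4 tested arms of the miR-7 list 3 were higher, beside 29.3% of all miRNAs. The third was rno-miR-7a-1-3p (log2FC = 2.81, SE 0.65), and rno-miR-7a-2-3p was not called (−0.32, SE 0.24). rno-miR-7a-5p remained called with the G+C trend out (log2FC = 1.11) and rno-miR-7b did not (0.32). Reads of members as alike as these can be assigned to either.

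Among the remaining leading miRNAs, rno-miR-21-5p, which is widely expressed and rises in reactive glia, was at 7.80, 8.17, 7.73 and 9.18 log2 CPM in the NAc and at 5.04, 4.81, 6.09 and 4.69 in the IL (log2FC = 3.14, SE 0.45). rno-miR-872-5p was at 6.36, 6.60, 6.37 and 7.63 against 3.59, 3.24, 4.29 and 2.92 (log2FC = 3.24, SE 0.52), and its other arm rno-miR-872-3p was higher too (1.12, SE 0.34). In both miRNAs the NAc library of M480 was the highest and the IL library of M476 the highest of the IL, and the regions did not overlap. rno-miR-101b-3p, which has the messenger RNA of the histone methyltransferase EZH2 among its known targets, was at 7.14, 7.80, 6.61 and 8.52 against 4.91, 4.45, 5.34 and 4.23 (log2FC = 2.89, SE 0.43). These 3 remained called with the G+C trend out, at 1.64, 1.94 and 1.58, and rno-miR-872-3p did not (0.64). rno-miR-101a-3p (log2FC = 2.38, SE 0.40) differs from rno-miR-101b-3p at a single base and was not called then (0.54).

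Further miRNAs of this group were rno-miR-495 (log2FC = 2.46), rno-miR-708-3p (2.44), rno-miR-9a-3p (2.40), rno-miR-16-5p (2.18) and rno-miR-411-5p (1.99), all non-overlapping between the regions. They were named for their large change, and 51.9% of all miRNAs did not overlap. rno-miR-9a-3p lost its call with the G+C trend out (0.40), and the others kept theirs. The other arms were higher too for miR-411 (rno-miR-411-3p, 1.53) and miR-708 (rno-miR-708-5p, 0.81). With the G+C trend out neither was called (0.44 and 0.60), and the call on rno-miR-708-5p also ended without rat M157 (0.68).

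**Figure D3:**
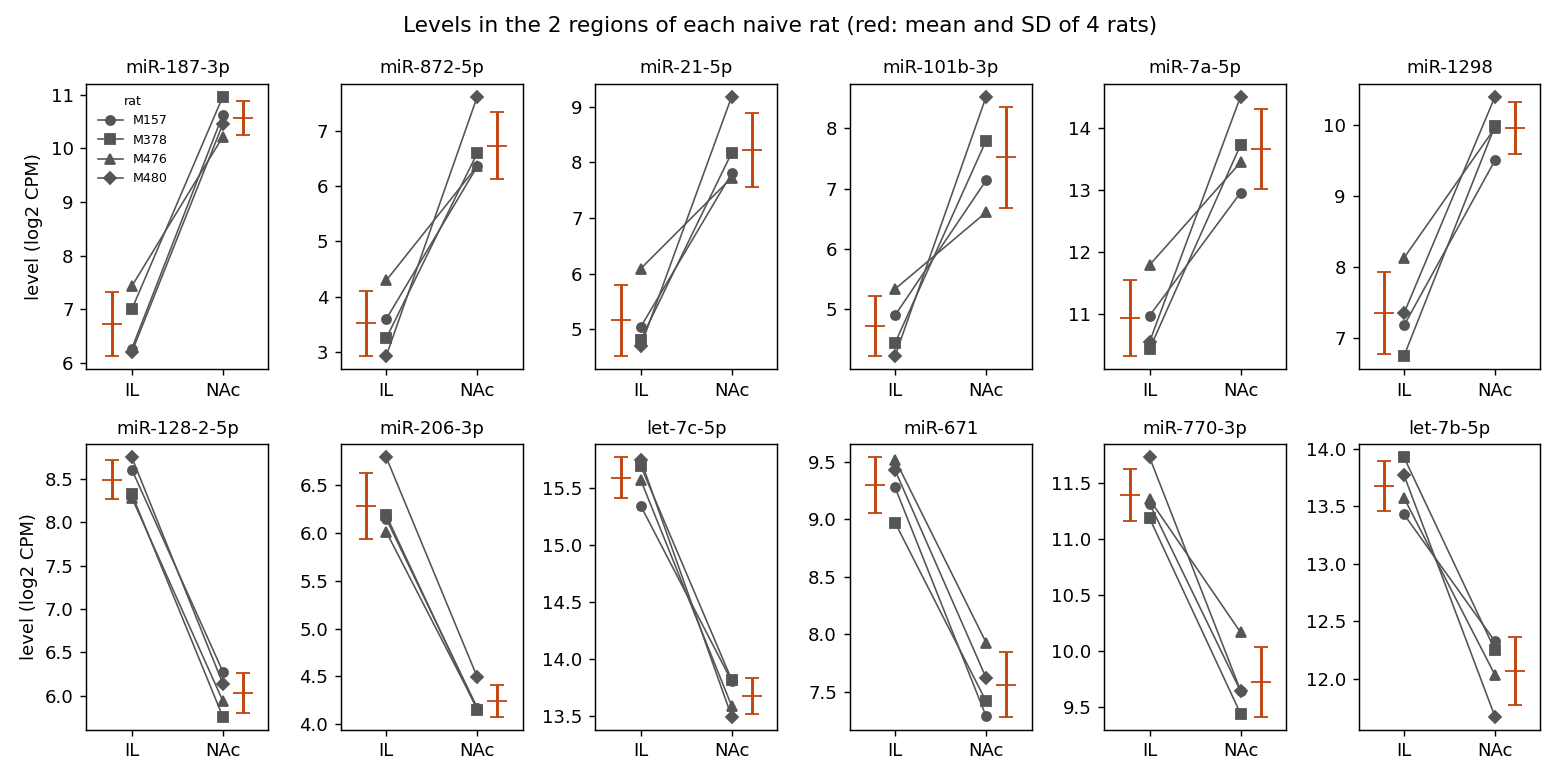
Levels (log2 CPM, y axis) in the IL and NAc of the 4 naïve rats, joined within each rat, for 6 miRNAs that were higher in the NAc (upper row) and 6 that were lower (lower row). Red marks give the mean and SD of 4 rats. All 4 lines rise in each upper panel and fall in each lower one, as for miR-187-3p, at 6.20 to 7.43 in the IL and 10.22 to 10.97 in the NAc.

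The miRNA that fell most in the NAc among the well expressed ones was rno-miR-128-2-5p, from one of the hairpins that make the neuronal miRNA miR-128. It was at 6.28, 5.76, 5.94 and 6.14 log2 CPM in the NAc and at 8.61, 8.32, 8.28 and 8.75 in the IL (log2FC = −2.44, SE 0.26, adjusted p = 3.31e-07). The corresponding arm of the other hairpin, rno-miR-128-1-5p, which has the same seed, was lower too (log2FC = −1.87, SE 0.29). The shared main product of both hairpins, rno-miR-128-3p, differed by less than the rule requires. It was at 17.33, 17.57, 17.55 and 18 log2 CPM in the NAc and at 18.24, 17.73, 18.35 and 18.20 in the IL, so that the regions overlapped (log2FC = −0.47, SE 0.30, adjusted p = 0.184). The 5p arms remained lower with the G+C trend out (−1.77 and −1.06), and rno-miR-128-3p was then called lower (−0.69).

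Members of the let-7 seed family, which hold back growth genes such as Lin28 and Hmga2 and are abundant in mature neurons, moved in both directions. rno-let-7c-5p was at 13.81, 13.82, 13.59 and 13.49 log2 CPM in the NAc and at 15.35, 15.70, 15.57 and 15.75 in the IL (log2FC = −1.90, SE 0.20, adjusted p = 3.31e-07). The regions were far apart beside the spread within each. rno-let-7b-5p (log2FC = −1.60, SE 0.24), rno-let-7e-5p (−1.16, SE 0.19), rno-let-7a-5p (−1.09, SE 0.14) and rno-let-7d-5p (−0.84, SE 0.15) were lower as well. In contrast, rno-let-7f-5p was at 14.42, 14.68, 13.82 and 14.81 in the NAc and at 13.20, 12.86, 13.60 and 13.07 in the IL (log2FC = 1.39, SE 0.33, adjusted p = 0.000948). rno-miR-98-5p rose to the same extent (1.43, SE 0.29), and rno-let-7i-5p was not called (0.20, SE 0.22). The members that rose had the lowest G+C content of the 8, 31.8%, against 36.4% to 45.5% in the others. With the G+C trend out, all 8 lay below zero, 6 of them called lower, rno-let-7i-5p included (−0.79). rno-let-7f-5p and rno-miR-98-5p were then at −0.57 and −0.54 and were not called. Members of this family differ by 1 to a few bases, so some reads may have been assigned to a neighbour. Of all 17 tested arms of the family 4 were higher and 7 lower (median log2FC −0.19), beside 29.3% and 25.6% of all miRNAs, and 0 were higher and 8 of the 16 with a sequence lower with the G+C trend out (median −0.84).

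The miR-99/100 and miR-125 list, families whose hairpins lie beside let-7 hairpins in the genome, had 0 of 11 tested arms higher and 7 lower (median log2FC −0.76), beside 29.3% and 25.6% of all miRNAs. rno-miR-125b-5p was at 14.43, 14.10, 14.14 and 13.83 log2 CPM in the NAc and at 14.95, 15.29, 14.75 and 15.22 in the IL (log2FC = −0.95, SE 0.16, adjusted p = 4.48e-05). rno-miR-125a-5p fell too (−0.76, SE 0.17), and so did the 3p arms rno-miR-125b-1-3p (−1.38), rno-miR-125a-3p (−1.37) and rno-miR-125b-2-3p (−1.20, adjusted p = 4.22e-07). The 3 miRNAs with the miR-125 seed, rno-miR-351-5p among them (−1.31, SE 0.18), were lower with and without the G+C trend. rno-miR-99b-3p was lower (−1.0), and rno-miR-99b-5p was just past the fold limit (−0.60). The call on rno-miR-99b-5p ended without rat M157 (−0.55) and without M480 (−0.57), and both miR-99b arms lost their calls with the G+C trend out (−0.29 and 0.12). In contrast rno-miR-99a-5p was not called (0.20, SE 0.29).

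Other leading miRNAs that were lower in the NAc were rno-miR-206-3p (log2FC = −1.99, SE 0.33), rno-miR-671 (−1.75, SE 0.23), rno-miR-770-3p (−1.74, SE 0.24), rno-miR-1224 (−1.68, SE 0.28), rno-miR-664-2-5p (−1.58), rno-miR-455-3p (−1.55), rno-miR-672-5p (−1.45) and rno-miR-503-3p (−1.40). rno-miR-671 was at 7.29, 7.42, 7.93 and 7.62 log2 CPM in the NAc and at 9.27, 8.97, 9.52 and 9.42 in the IL (adjusted p = 3.71e-06). rno-miR-206-3p, best known from skeletal muscle, was at 4.17, 4.15, 4.16 and 4.49 against 6.15, 6.18, 6.01 and 6.79. None of these 8, named for their large change, overlapped between the regions. Of all miRNAs 51.9% did not overlap. All 8 remained lower with the G+C trend out, at −2.45 to −0.81. The other arm of miR-770, rno-miR-770-5p, was lower (−0.90), a call that ended without rat M378 (−0.81) or M480 (−0.54) and with the G+C trend out (−0.04). The other arms of miR-672 (rno-miR-672-3p, 0.24, SE 0.22) and miR-503 (rno-miR-503-5p, −0.29, SE 0.23) were not called.

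Of the 10 most abundant miRNAs of the 8 libraries 5 were lower, 2 were higher and 3 were not called. Over all miRNAs 25.6% were lower and 29.3% higher. rno-miR-328a-3p (log2FC = −1.11, SE 0.22) and rno-miR-127-3p (−0.83, SE 0.16) were lower beside rno-let-7a-5p, rno-let-7c-5p and rno-miR-125a-5p. rno-miR-9a-5p (1.18, SE 0.40) and rno-miR-26a-5p (0.70, SE 0.22) were higher, while rno-miR-128-3p, rno-let-7i-5p and rno-miR-99a-5p were not called. The calls on both higher ones ended without rat M378 (0.90 and 0.57) and without M480 (1.09 and 0.63), and their sign turned with the G+C trend out (−0.47 and −0.28).

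Of the 21 tested arms of neuron-enriched miRNAs, 5 were higher and 8 lower (median log2FC −0.21), beside 29.3% higher and 25.6% lower of all miRNAs tested. The 21 arms summed to 234506 to 373709 CPM in the NAc and 277128 to 424897 in the IL, which overlap. Whether the list differs from all miRNAs in its shares of calls was not tested. Its members moved in both directions. rno-miR-124-3p, the best known neuronal miRNA, was lower (log2FC = −0.62, SE 0.19), but not without rat M378 (−0.57) or M480 (−0.43). Nor was it called without the rat as a block (−0.58), in the 8 libraries alone (−0.55), with library totals (−0.34) or among miRNAs of at least 10 CPM (−0.57). rno-miR-129-5p was lower (−0.99, SE 0.23), as was the activity-regulated rno-miR-132-3p (−0.80, SE 0.19). rno-miR-218a-5p was higher (1.57, SE 0.35). rno-miR-132-3p remained called with the G+C trend out (−0.82), while rno-miR-129-5p (−0.51) and rno-miR-218a-5p (0.29) did not. miR-137, a regulator of synaptic genes, moved in both directions. rno-miR-137-3p was at 4.57, 4.69, 3.13 and 5.41 log2 CPM in the NAc and at 1.97, 1.80, 1.51 and 2.03 in the IL (2.76, SE 0.38). rno-miR-137-5p was at 6.25, 6.15, 6.44 and 6.45 against 7.47, 7.66, 7.67 and 8.0 (−1.34, SE 0.23). Both calls remained with the G+C trend out (1.09 and −1.80). rno-miR-138-5p did not reach the fold limit (0.51, SE 0.19) and did so with the trend out (0.97).

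Among miRNAs that mark other cells of the brain, rno-miR-338-3p, a miRNA of myelinating oligodendrocytes, was at 5.67, 5.73, 4.75 and 6.14 log2 CPM in the NAc and at 2.37, 2.76, 3.64 and 2.62 in the IL (log2FC = 2.84, SE 0.41, adjusted p = 1e-05), and remained called with the G+C trend out (1.62). The more abundant arm rno-miR-338-5p was not called (0.58, SE 0.26) but was without rat M476 (0.72). The oligodendrocyte list thus had 1 of 2 tested arms higher, beside 29.3% of all miRNAs. miR-219, the other miRNA of these cells, stood under names that the list did not match and was looked up after its values were seen. Its abundant arm rno-miR-219-2-3p was not called (0.65, SE 0.37), and rno-miR-219-1-3p was lower (−0.71, SE 0.26), a call that ended without rat M157 (−0.54).

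Of 6 vascular arms 4 were higher and 1 lower (median log2FC 1.16), beside 29.3% and 25.6% of all miRNAs. The summed level of the vascular arms was 6122 to 13463 CPM in the NAc and 2669 to 5664 in the IL. These ranges do not overlap. rno-miR-126a-3p, of endothelium, was at 12.28, 12.41, 12.04 and 13.15 log2 CPM in the NAc and at 11.40, 10.59, 11.58 and 10.88 in the IL (log2FC = 1.44, SE 0.41), and its other arm rno-miR-126a-5p had a log2FC of 2.48 (SE 0.48). Both miR-126a calls remained with the G+C trend out (0.96 and 1.20). rno-miR-143-3p, of smooth muscle, was higher (1.24, SE 0.47), and its neighbour miR-145 was split, with rno-miR-145-5p lower (−0.78) and rno-miR-145-3p higher (1.07). The call on rno-miR-143-3p ended without rat M378 (1.08) or M480 (0.94) and with the G+C trend out (0.76). That on rno-miR-145-5p ended without M378 (−0.67). That on rno-miR-145-3p ended without M157 (1.23), M378 (0.84) or M480 (0.92), and with the trend out (0.30).

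Immune and microglial miRNAs had 1 of 6 tested arms higher and 3 lower (median log2FC −0.56), beside 29.3% and 25.6% of all miRNAs. They summed to 2091 to 3044 CPM in the NAc and 2757 to 3683 in the IL. Both arms of the lymphocyte miRNA miR-150 were lower, rno-miR-150-5p with log2FC = −0.87 (SE 0.19) and rno-miR-150-3p with −1.31 (SE 0.23), and so was rno-miR-146b-3p (−1.22, SE 0.20). The miR-150 arms had no sequence and so no value with the G+C trend out. The far more abundant arm rno-miR-146b-5p was not called (−0.24, SE 0.31) but was lower with the G+C trend out (−1.14). rno-miR-142-5p, the leukocyte marker, was higher (2.42, SE 0.67), though not with the G+C trend out (0.55), and rno-miR-146a-5p was not called (0.19) but was lower with the trend out (−0.80). The 1 red blood cell miRNA tested, rno-miR-451-5p, was not called (0.99, SE 0.79) and summed with its list to at most 1.76 CPM in any of the 8 libraries. The part of vessels in the other differences was not tested.

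MiRNAs of tissues at the edge of a dissection were also measured, where 29.3% of all miRNAs were higher and 25.6% lower. The 8 choroid plexus and ependymal arms summed to 1548 to 2289 CPM in the NAc and 1434 to 1980 in the IL, with 0 higher and 1 lower, rno-miR-204-3p (log2FC = −0.94, SE 0.22), which was not called with the G+C trend out (−0.38). Its abundant partner rno-miR-204-5p was below the fold limit (0.50, SE 0.18) and passed it without rat M157 (0.59). With the trend out 0 of these 8 arms were higher and 2 lower, beside 20.4% and 21.2% of the miRNAs with a sequence. None of the 8 epithelial and sensory arms was called (33.3 to 42.6 CPM against 26.7 to 52.7), nor was either of the 2 Hox-encoded arms (20.4 to 161 against 29.3 to 77.3). With the trend out 0 of the 5 epithelial and sensory arms with a sequence were higher and 1 was lower. rno-miR-205, also a miRNA of epithelia but outside that list, was lower in the NAc (log2FC = −2.94). Of 4 muscle arms 2 were higher, rno-miR-1-3p (1.32) and rno-miR-499-5p (1.5), and 2 were lower, rno-miR-206-3p and rno-miR-133a-3p (−1.25), all at 43.3 to 96.2 CPM in sum in the NAc and 91.7 to 135 in the IL. Except for rno-miR-206-3p these calls ended with the G+C trend out (−0.66, −0.29 and −0.90). They also ended without rat M480 (1.06, 1.1 and −0.74), and those on rno-miR-1-3p and rno-miR-133a-3p without M378 (1.13 and −1.16).

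**Figure D4:**
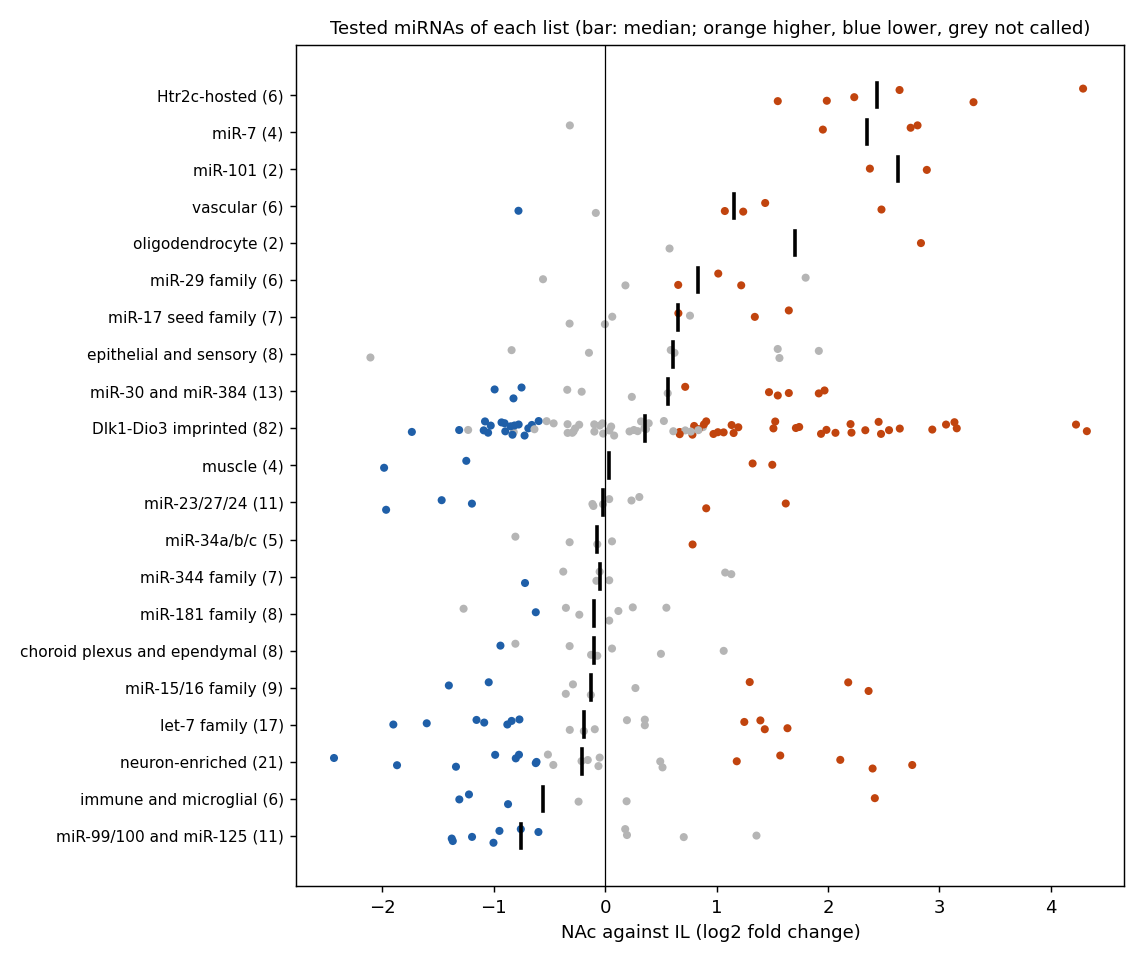
Each point is 1 tested miRNA arm of a list, placed by its NAc against IL log2 fold change (x axis), with the list and its number of tested arms on the y axis. Black bars give medians, and colours mark calls as higher, lower or not called. Lists with 3 or more arms range from miR-99/100 and miR-125, with a median of −0.76, to the Htr2c-hosted arms, with 2.44, and 2 lists with no call and 1 or 2 arms are left out.

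The miR-30 and miR-29 families had called members mostly on the higher side. All 4 members with the miR-30 seed that have a sequence were higher, rno-miR-384-5p (log2FC = 1.65), rno-miR-30e-5p (1.55), rno-miR-30c-5p (1.47) and rno-miR-30a-5p (0.72), and rno-miR-30b-5p was higher too (1.92). Of all 13 arms of that list, 6 were higher and 3, all of them 3p arms, were lower, beside 29.3% and 25.6% of all miRNAs. rno-miR-30d-5p, among the most abundant arms of the list, was not called. The 13 arms summed to 25958 to 32273 CPM in the NAc and 24867 to 31925 in the IL, which overlap. Of the 4, rno-miR-30c-5p remained called with the G+C trend out (0.76), while rno-miR-384-5p (0.01), rno-miR-30e-5p (0.54) and rno-miR-30a-5p (0.24) did not, and rno-miR-30a-5p was not called without rat M378 (0.46) or M480 (0.65). The 3 mature miR-29 miRNAs, which target collagen transcripts, were higher, rno-miR-29b-3p (1.22, SE 0.18), rno-miR-29c-3p (1.02, SE 0.26) and rno-miR-29a-3p (0.66, SE 0.16), with none of the other 3 arms called. The sign of all 3 turned with the G+C trend out (−0.42, −0.45 and −0.34), and rno-miR-29a-3p fell below the fold limit without M378 (0.58).

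In the miR-17 seed list 3 of 7 arms were higher, rno-miR-106b-5p (log2FC = 1.65), rno-miR-20a-5p (1.34) and rno-miR-17-5p (0.66), and none was lower, beside 29.3% and 25.6% of all miRNAs. rno-miR-106b-5p kept its call with the G+C trend out (0.90), and rno-miR-20a-5p (0.15) and rno-miR-17-5p (0.44) did not. The call on rno-miR-17-5p also ended without rat M157 (0.58), M378 (0.59) or M480 (0.62), in the 12 naïve libraries alone (0.62), with upper-quartile scaling (0.46) and with no filter on low counts (0.56). Of 9 arms of the miR-15/16 family 3 were higher and 2 lower, close to the shares over all miRNAs (29.3% and 25.6%). rno-miR-503-3p and rno-miR-195-3p (−1.05) were lower while rno-miR-195-5p (1.30) was higher, beside rno-miR-16-5p and rno-miR-322-5p (2.37). The calls on rno-miR-195-5p (0.52) and rno-miR-322-5p (1.35) ended with the G+C trend out, when 1 arm of the 9 was higher and 3 were lower, and that on rno-miR-322-5p also ended without M480 (1.88). In the miR-23/27/24 list 2 of 11 arms were higher and 3 lower, beside 29.3% and 25.6% of all miRNAs. The higher ones were rno-miR-27b-3p (1.62, SE 0.25) and rno-miR-24-1-5p (0.91). The lower ones were rno-miR-27a-5p (−1.47), rno-miR-23b-5p (−1.20) and rno-miR-23a-5p (−1.97). The last of these had few counts, and its call ended without M378 (−1.87), M476 (−2.0) or M480 (−1.21), and with no block for the rat (−1.78).

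The miR-181 family had 0 of 8 arms higher and 1 lower, rno-miR-181a-5p (log2FC = −0.62, SE 0.15), which fell below the fold limit without rat M476 (−0.56), in the 8 libraries alone (−0.55), with library totals (−0.34) and among miRNAs of at least 10 CPM (−0.56). The rodent miR-344 family had 0 of 7 higher and 1 lower, rno-miR-344b-5p (−0.72, SE 0.15), also under the limit without M480 (−0.56). Of 5 arms of miR-34 only rno-miR-34a-5p was called, higher (0.79, SE 0.28), and not without M378 (0.51) or M476 (0.59). With the G+C trend out, miR-181 had 0 arms higher and 2 lower, and miR-34 had 1 higher and 1 lower. The 4 miR-344 arms with a sequence then had 0 higher and 1 lower. Of the 411 miRNAs with a sequence 20.4% were then higher and 21.2% lower. The 2 tested arms of the miR-101 list were both higher, as given above. Beside these lists, 29.3% of all miRNAs were higher and 25.6% lower.

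The imprinted Dlk1-Dio3 locus, whose maternal copy makes a large group of miRNAs in placental mammals, gave 82 tested arms, of which 33 were higher and 17 lower (median log2FC 0.36). Over all miRNAs 29.3% were higher and 25.6% lower, and whether the locus differs from these shares was not tested. The 82 arms had a lower summed level in the NAc (77204 to 97325 CPM) than in the IL (103326 to 125845). The most abundant member of the locus, rno-miR-127-3p, was among the lower ones. Higher members included rno-miR-369-3p (log2FC = 4.33, SE 0.72), rno-miR-382-3p (3.16, SE 0.50), rno-miR-376b-3p (3.06, SE 0.58), rno-miR-380-3p (2.65, SE 0.34), rno-miR-136-3p (2.48, SE 0.47) and rno-miR-495 (2.46, SE 0.32). Of these, rno-miR-380-3p was at 5.65, 6.03, 5.73 and 6.28 log2 CPM in the NAc and at 3.58, 2.76, 3.63 and 3.15 in the IL (adjusted p = 3.71e-06). Across the 80 arms with a sequence the Spearman correlation of the log2FC with G+C content was −0.74. With the G+C trend out 25 of these 80 arms were higher and 7 lower, beside 20.4% and 21.2% of the 411 miRNAs with a sequence. rno-miR-495 (0.99) and rno-miR-380-3p (1.33) were then among the higher, while rno-miR-369-3p (1.46) and rno-miR-127-3p (−0.27) were not called.

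The arms of a hairpin did not always move together. In 118 hairpins both arms were tested, where over all miRNAs 29.3% were higher and 25.6% lower. Of these hairpins 56 had 1 arm called and 24 had 0. Both arms were called in 38, higher in 17, lower in 12 and in opposite directions in 9. Besides miR-137, miR-145 and miR-195 the last included miR-135a, with rno-miR-135a-5p higher (log2FC = 2.56, SE 0.53) and rno-miR-135a-3p lower (−1.72, SE 0.22), and miR-323, with rno-miR-323-5p lower (−1.09, SE 0.24) and rno-miR-323-3p higher (0.84, SE 0.13). The log2FC of the 5p and 3p arms had a Spearman correlation of 0.38 over these 118 hairpins. The arm with less G+C was the higher one in 8 of the 9 split hairpins, and in 80 of the 111 hairpins whose arms differ in G+C. Over all 111, the log2FC of the arm with less G+C minus that of the other had a median of 0.73. rno-miR-135a-3p (−2.18) and rno-miR-323-3p (1.03) remained called with the G+C trend out, and rno-miR-135a-5p (0.49) and rno-miR-323-5p (−0.10) did not. As both arms come from one transcript, each such difference is one in the measured ratio of the arms. Whether that ratio differs in the tissue was not tested.

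Among miRNAs of low level, those of the X-linked miR-743 and miR-741 group, known mainly from testis, were found in the NAc. rno-miR-741-3p had 240, 158, 231 and 289 counts in the NAc of rats M157, M378, M476 and M480 and 1, 4, 10 and 1 in their IL (log2FC = 6.20, SE 0.92, adjusted p = 1.2e-05). rno-miR-871-3p had 33, 21, 53 and 35 counts against 0, 3, 5 and 0 (5.03, SE 1.07). All NAc libraries were above all IL libraries for both. rno-miR-743a-3p had 28, 11, 10 and 16 counts against 2, 0, 0 and 0 (4.87, SE 0.98), and rno-miR-743b-5p had 17, 12, 6 and 11 against none in any IL library. Taking 3 counts over the 4 IL libraries as the limit that a count of 0 allows, rno-miR-743b-5p was at least 13.2-fold higher in the NAc over the group. This used summed raw counts over library totals, without TMM scaling, and took the NAc counts as exact. rno-miR-653-5p, hosted in the calcitonin receptor gene, had 15, 5, 2 and 13 counts against none, at least 10.1-fold higher by the same limit and scale. The calls on rno-miR-743b-5p and rno-miR-653-5p ended without rat M476 (fitted log2FC = 6.18 and 6.10), and that on rno-miR-653-5p also with the G+C trend out (4.96) and with DESeq2.

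In the other direction, rno-miR-214-3p had 2, 4, 1 and 1 counts in the NAc and 5, 43, 21 and 20 in the IL (log2FC = −3.73, SE 0.49, adjusted p = 3.71e-06). rno-miR-205 had 19, 18, 31 and 18 counts against 82, 187, 87 and 109 (−2.94, SE 0.39), with no overlap in CPM. Both arms of miR-483, which lies in an intron of the growth factor gene Igf2, were lower, rno-miR-483-5p with −2.71 (SE 0.57) and rno-miR-483-3p with −2.61 (SE 0.53). Together with rno-miR-326-5p (−2.52, SE 0.63) these were the low-level miRNAs that fell most, and all 5 remained called with the G+C trend out.

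The same comparison was made in the rats of the other groups, which share no library with the naïve rats though they share the fit and its dispersion. At withdrawal 126 miRNAs were higher in the NAc (27.6%) and 118 lower (25.8%), 244 in all (53.4%). After abstinence 133 were higher (29.1%) and 121 lower (26.5%), 254 in all (55.6%). Of the 251 called in naïve rats, 221 were called in the same direction at withdrawal (88.0% of the naïve calls and 90.6% of the withdrawal calls) and 215 after abstinence (85.7% and 84.6%). In both, 201 were called in the same direction, and 0 were called in the opposite direction in either. The Spearman correlation of the log2FC with that of naïve rats was 0.93 at withdrawal and 0.92 after abstinence over the 457 miRNAs, and the correlation with G+C content was −0.60 and −0.58, so the trend on G+C was present in these rats too.

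For rno-miR-187-3p the log2FC was 3.47 at withdrawal and 4.86 after abstinence, for rno-miR-1298 1.98 and 2.90, for rno-miR-7a-5p 3.18 and 3.03, for rno-miR-128-2-5p −2.70 and −2.61, and for rno-let-7c-5p −1.96 and −1.85. Each of these 5 kept its direction in both groups. A test of the difference from naïve rats passed the adjusted p for 0 miRNAs at withdrawal and 0 after abstinence (edgeR, 9 and 19 at an unadjusted p under 0.05, with lowest adjusted p = 0.865 and 0.996). The low-level rno-miR-871-3p had the widest gap of those named, with a log2FC of 0.30 at withdrawal, where its IL level was −0.51 ± 2.61 log2 CPM (SD, n = 4) against −2.85 in naïve rats. One NAc library of the abstinence group, from rat M363, had a G+C slope of 0.211, above all other NAc libraries, and without this rat the abstinence calls were 139 higher and 127 lower.

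**Figure D5:**
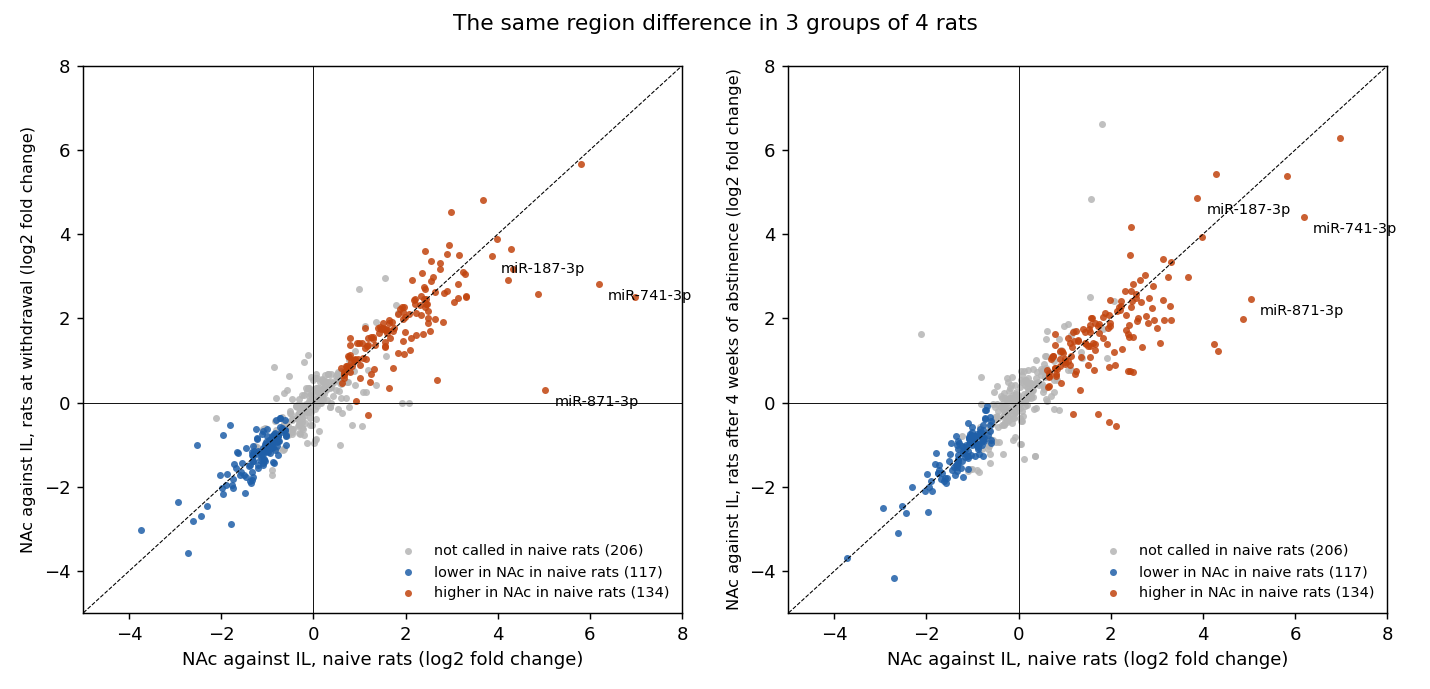
Each point is 1 of the 457 miRNAs, with the NAc against IL log2 fold change in naïve rats (x axis) and in rats at withdrawal (left) or after abstinence (right) (y axis), and the dashed line marks equal values. Colours mark the calls in naïve rats. Most points lie along the line (Spearman 0.93 and 0.92), and miR-871-3p lies far below it on the left, at 5.03 and 0.30.

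Set beside the second cortical area, the same NAc libraries gave similar values, as these comparisons share libraries and are not independent. Against the PL of naïve rats 124 miRNAs were higher in the NAc (27.1%) and 119 lower (26%). The log2FC against the PL was 4.29 for rno-miR-187-3p, 3.0 for rno-miR-1298, 3.11 for rno-miR-7a-5p, −2.55 for rno-miR-128-2-5p and −1.90 for rno-let-7c-5p. Between the cortical areas, PL against IL, 0 miRNAs were called (edgeR, 3 at an unadjusted p under 0.05, lowest adjusted p = 0.997), and these 5 had log2FC of −0.41, −0.35, −0.37, 0.12 and −0.01.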

How the data were processed

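Small RNA was sequenced in 36 libraries, of which the 8 NAc and IL libraries of 4 naïve rats are compared here. According to the authors, reads were processed with the CAP-miRseq workflow, and the deposited table holds unnormalized counts of reads for each mature miRNA. The paper names rn6 and the submitters' processing notes mRatBN7.2 (rn7), so no coordinates are given. Which libraries shared a sequencing pool was not given in the sources used here, which left pools out of the fits. How reads that fit several mature miRNAs were counted is not given in the sources used here, which touches near-identical family members. The labels do not name the rats: libraries were tied to rats by the study's list of RNA samples, except the NAc library of M480, which was not matched there and was paired as the only one left.

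Tests used R 4.3.3 with edgeR 4.0.16 on the counts as deposited: filterByExpr over the 9 combinations of group and region (minimum count 10, minimum total 15), TMM scaling, and the quasi-likelihood test on all 36 libraries with the rat as a fixed block, region effects within each group of rats, and RIN as a covariate, as the study used RIN and a fold change of 1.5. Rat numbers mark the same animal. Within the naïve group the deviations of NAc and IL from their means correlated at −0.05 to 0.36 within a rat. SEs of log2FC were taken from the test statistic and are approximate. Log2 CPM used a prior count of 0.5. The G+C trend was a loess curve (span 0.75) of each library's deviation on G+C content, entered as an offset. limma 3.58.1 (voom, random rat block) and DESeq2 1.42.0 were alternatives. The script was tested on simulated data, where 34.3% of 1.5-fold, 62.7% of 2-fold and 90.9% of 4-fold changes were called. Of unchanged miRNAs 1.17% were called. A miRNA that was not called may therefore still differ. No pair of libraries of one group agreed within sampling noise. Intervals from counts cover counting error only.

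Named miRNAs were drawn from the 12 largest changes in each direction with a mean of at least 5 log2 CPM, the 5 lowest p-values in each direction, the 10 most abundant, the 5 largest changes in each direction under that mean, the other arms of the first set, and the called and most abundant members of 23 lists; others were chosen after their values were seen. The members and lists were chosen with earlier results of these data known. RefSeq (GRCr8) gave mature sequences for 645 of 723 names.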

Additional observations from a re-analysis of the deposited data

Results flagged for a closer look

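In 15 of 252 groups of 4 libraries (126 named miRNAs in each region), 1 rat lay apart from the other 3 past Dixon's 95% critical value. Chance alone gives about 1 group in 20. All values are log2 CPM, where a count of 0 stands at −4.46.

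In the IL, rat M480 was the lowest for rno-miR-872-3p (1.98) and rno-miR-106b-5p (1.26). Rat M378 was the lowest for rno-miR-129-5p (14.70) and for rno-miR-142-5p (−4.46, a count of 0), and the highest for rno-miR-145-5p (7.41). Rat M157 was the highest for rno-miR-1912-3p (−2.55, 1 count beside 3 libraries at 0) and rno-miR-743a-3p (−1.76), and rat M476 was the lowest for rno-miR-326-5p (−1.99).

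In the NAc, rat M480 was the highest for rno-miR-411-3p (9.78) and rno-miR-206-3p (4.49), and rat M157 for rno-miR-135a-3p (4.47). Rat M476, whose NAc library had the lowest RIN (8.1), was the highest for rno-miR-146b-3p (3.39) and the lowest for rno-miR-743b-5p (−1.07), rno-miR-326-5p (−4.46) and rno-miR-323-3p (11.04). The part of RIN in these values was not tested.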

How the results depend on the processing

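With the 134 higher and 117 lower calls as the base, other settings gave 112 to 131 higher and 102 to 118 lower when each rat was left out in turn, and 130 and 115 without the rat as a replicate block, which ended the calls on rno-miR-124-3p (−0.58) and rno-miR-23a-5p (−1.78) and no other call among the named miRNAs. DESeq2 gave 135 and 121, and limma-voom with the rat as a random block 136 and 118. Scaling by library totals gave 162 and 73 (median log2FC 0.35), upper-quartile scaling 116 and 131 (median −0.13), a mean of at least 10 CPM 85 and 85 of 299 tested, a fold of at least 2 gave 110 and 74, and removal of the G+C trend, added after the data were seen, 84 and 87 of 411. Of 2094 values of the 126 named miRNAs under 17 settings, 1957 kept their direction and side of the threshold, 110 were no longer called, 12 became called and 15 turned sign. With the G+C trend out the sign turned for rno-miR-9a-5p (−0.47), rno-let-7f-5p (−0.57), rno-let-7i-5p (−0.79), rno-miR-98-5p (−0.54), rno-miR-26a-5p (−0.28), rno-miR-1-3p (−0.66), rno-miR-499-5p (−0.29), rno-miR-29a-3p (−0.34), rno-miR-29b-3p (−0.42), rno-miR-29c-3p (−0.45), rno-miR-146a-5p (−0.80), rno-miR-451-5p (−0.44), rno-miR-7a-2-3p (0.0198) and rno-miR-99b-5p (0.12). Scaling by library totals ended the calls on rno-let-7d-5p (−0.55), rno-miR-125a-5p (−0.47), rno-miR-127-3p (−0.54), rno-miR-132-3p (−0.51), rno-miR-145-5p (−0.49), rno-miR-150-5p (−0.58), rno-miR-344b-5p (−0.43), rno-miR-99b-5p (−0.30), rno-miR-770-5p (−0.62), rno-miR-133a-3p (−0.94), rno-miR-219-1-3p (−0.42) and rno-miR-23a-5p (−1.70), beside those on rno-miR-124-3p and rno-miR-181a-5p. Upper-quartile scaling ended those on rno-miR-708-5p (0.62), rno-miR-26a-5p (0.51), rno-miR-145-3p (0.87), rno-miR-29a-3p (0.47), rno-miR-30a-5p (0.53) and rno-miR-34a-5p (0.61). Upper-quartile scaling turned rno-miR-146a-5p (−0.0012). The cause was not tested. Low-level miRNAs rest on few counts, so their fold changes are imprecise.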
